A study of Mus musculus with 6 samples.

Results

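The 8 genes described here, Tcp1, Cct2, Cct3, Cct4, Cct5, Cct6a, Cct7 and Cct8, code for the subunits of the chaperonin CCT, also called TRiC. A table of 21139 genes holds a row for each, and the deposited descriptions name 7 as chaperonin subunits, beta to theta, and Tcp1 as t-complex protein 1. The genes were taken by name, and the set was chosen with its read counts in CpdA against medium already known, so it counts as selected on those values. The differences between CpdA and medium are therefore given as a description, with no p-value, and where the number of subunits past the threshold used for all genes is given, it supports nothing. RNA was measured in 6 libraries of spleen CD4+ T cells from C57BL/6J mice. All cells were activated for 2 days with antibodies to CD3 and CD28, which mimic antigen receptor and co-stimulatory signals. One group of 3 libraries had medium alone. The other group of 3 had CpdA, an agonist of the fatty acid receptor Gpr120, at a labelled dose of 20 whose unit is read here as µM. The design asks how expression differs with and without the agonist. Nothing in the labels ties replicates to separate mice or cultures. The p-values thus reflect the spread among these 6 libraries alone, which may be technical.

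CCT is a cytosolic folding machine made of a pair of stacked rings. Each ring holds 1 copy of each of the 8 subunits in a fixed order, and ATP-driven closure of the rings encloses the substrate. Actin and tubulin are its best known obligate substrates, followed by proteins with WD40 propellers such as G protein beta subunits. The co-chaperone prefoldin hands unfolded actin and tubulin to CCT, and phosducin-like proteins assist with G protein beta subunits. T cells that enter the cell cycle make large amounts of these substrates.

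The subunit genes lie on 8 different chromosomes, so no pair of them shares a promoter. Promoter windows from RefSeq (build GRCm38.p6, 250 bases before to 50 after each start) were found for 7 of the 8 genes, with 2 starts each for Cct2 and Cct5. Upstream stretches of 6 genes are shown as a description: Cct3, Cct6a and Cct8 were higher with CpdA, whereas Cct2, Cct5 and Cct7 differed less. The set was selected on these differences, so nothing is read from motifs set beside them. Tcp1 is left out because the 100 bases before its start lie in exons of Mrpl18, although those of Cct6a lie in exons too. Each runs 5′ to 3′ on the strand of its gene and leaves out annotated exons, except that Cct6a and Cct5 are cut to 30 bases because their upstream bases lie in exons. Those 30 bases run from -60 to -31 of the start for Cct6a and from -45 to -16 for Cct5. They were placed to hold motif matches and do not show how dense motifs are. For Cct2 and Cct5 the stretch before a single start is shown. Capitals mark matches, on either strand, to the motifs listed after them.
Cct3 (chr3:88297035-88297115, plus strand): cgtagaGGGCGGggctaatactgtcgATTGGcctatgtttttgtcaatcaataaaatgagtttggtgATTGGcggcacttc
Cct6a (chr5:129787296-129787325, plus strand): gCCAATcagcGGGCGGcaggagggtcgcca
Cct8 (chr16:87495874-87495969, minus strand): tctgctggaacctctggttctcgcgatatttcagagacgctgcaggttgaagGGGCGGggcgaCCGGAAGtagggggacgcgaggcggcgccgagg
Cct7 (chr6:85451405-85451504, plus strand): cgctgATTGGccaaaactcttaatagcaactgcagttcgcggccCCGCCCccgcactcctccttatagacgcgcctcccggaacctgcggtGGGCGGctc
Cct2 (chr10:117063853-117063952, minus strand): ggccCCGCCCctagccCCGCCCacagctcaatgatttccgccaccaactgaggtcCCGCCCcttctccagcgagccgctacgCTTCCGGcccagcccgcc
Cct5 (chr15:31601862-31601891, minus strand): acagcggccgaTTCCAGAAgctactctgcg

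The motifs searched in the full windows were the GC box GGGCGG, the CCAAT box CCAAT, the E-box CACGTG, the ETS motif CCGGAAG and the heat shock element cores GAANNTTC and TTCNNGAA, each on both strands. A GC box was found in 8 of the 9 windows and in all 7 genes with an entry, against 61.8% of the 12129 windows of tested genes and 35.7% of all 32851 windows. A CCAAT box was found in 4 windows, those of Cct3, Cct6a, Cct7 and Tcp1 (37.6% of windows of tested genes). A heat shock element core was found in 3 windows, those of Cct2, Cct5 and Cct6a (11.7%), and an ETS motif in those of Cct2, Cct8 and Tcp1 (17.4%). For Cct2 the heat shock core lay in the window of the start that is not shown. In Cct6a it lay after the start, outside the stretch shown. The window of the other Cct5 start, not shown, held none of these motifs. No window held the E-box (9.89%). These shares are a description, and the part of any motif in the differences between groups was not tested.

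Across the series, library totals ran from 20247761 to 25952169 counts. Of 13507 genes tested with edgeR, 33.2% passed an adjusted p of 0.05. Refitted on the 9845 genes with at least 5 CPM (counts scaled to the library total) in 3 libraries, 4165 passed, a larger share. The lists below hold mostly abundant genes, so 33.2% is a low background for them. By the same threshold, 16.5% of all tested genes rose and 16.7% fell. CD4 T cell markers (6 of 6 with a row) summed to between 1413 and 1443 CPM in medium and between 1258 and 1276 CPM with CpdA. All 6 of 6 fell past the threshold. B cell markers summed to between 24.6 and 30.1 CPM in medium and between 25.8 and 30.5 CPM with CpdA, where 1 of 5 rose. CD8 T cell, dendritic cell, neutrophil and NK cell markers each summed to under 10 CPM in every library, with 0 calls. The neutrophil sum rests on 1 gene of 4. Macrophage markers summed to between 4.70 and 5.63 CPM in medium and between 4.01 and 4.20 CPM with CpdA, where 1 of 3 fell. Adgre1, S100a8, S100a9 and Mpo, markers of macrophages and neutrophils, were not analysed here. The part of these differences in the results that follow was not tested. In bulk RNA, fewer cells of a type and less RNA per cell cannot be told apart.

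All 8 subunit genes were abundant. Their levels are given as the authors' FPKM, counts per kilobase of the deposited gene length and per library total, since levels of different genes can be compared only per length. The lowest, Cct3, still exceeded 94.9% of the 13507 tested genes, whose median was 7.51 FPKM. The 8 genes together took 0.378% of all counts in medium and 0.399% with CpdA. Their summed CPM was 3701, 3862 and 3763 in the medium libraries and 4034, 3949 and 3986 in the CpdA libraries. Every CpdA library lay above every medium library, and the means differed by 5.67%, from 3775 ± 81.4 to 3989.5 ± 42.5 CPM (SD, n = 3).

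**Figure D1:**
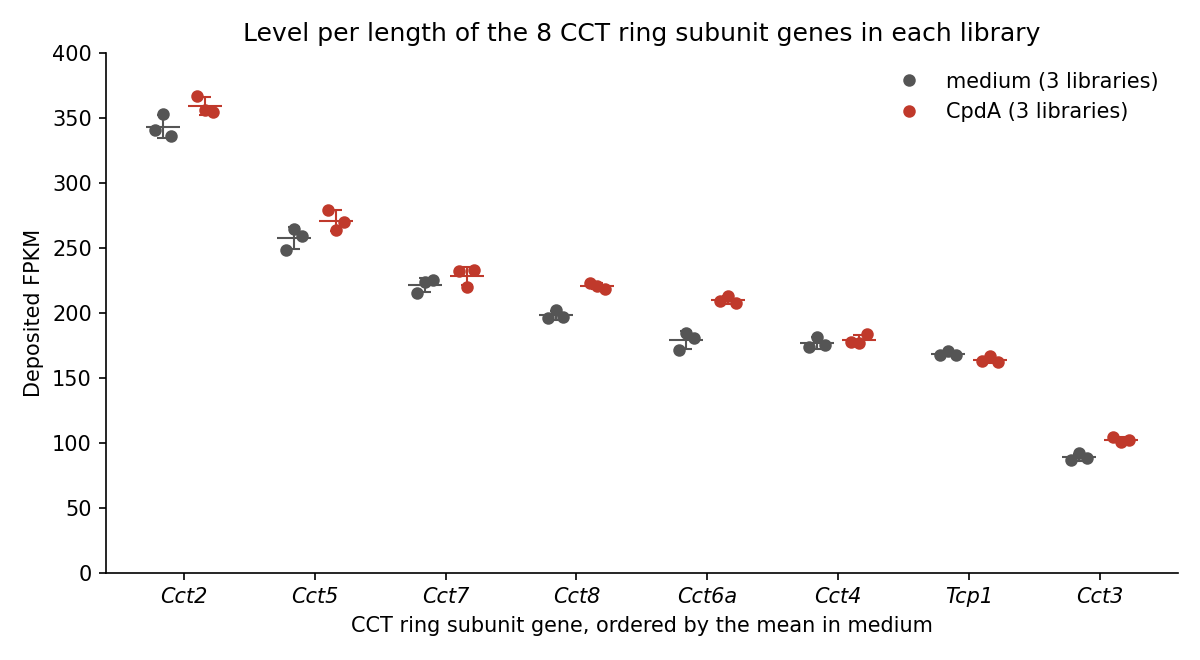
Deposited FPKM of the 8 subunit genes (vertical axis) in the 3 medium and 3 CpdA libraries, 1 point per library, with the mean and SD of each group as bars. Cct2 is highest and Cct3 lowest in every library, and the groups part most clearly for Cct8, Cct6a and Cct3.

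Levels per length were unequal although the ring holds the subunits in equal number. In medium, Cct2 was highest at 343 ± 9 FPKM (SD, n = 3). Cct5 followed at 257 ± 9, Cct7 at 221 ± 5 and Cct8 at 198 ± 3 FPKM, and these 4 did not overlap their neighbours in the order. Cct6a, at 179 ± 7 FPKM, and Cct4, at 177 ± 4 FPKM, overlapped. Tcp1 had 168 ± 2 FPKM and Cct3 88.9 ± 2.6 FPKM, so that Cct2 exceeded Cct3 by 3.86-fold. With CpdA the same order held by the means, but Cct6a now stood above Cct4 in 3 of 3 libraries and Cct8 overlapped Cct7. The middle of this order depends on the length used. With the union of GENCODE exons, Cct7 moved from the third place to the seventh, and with the coding length alone, Tcp1 moved from the seventh place to the second. Cct2 was highest and Cct3 lowest with all 3 lengths, though Cct6a, which has no coding sequence in that annotation, could not be placed by the last. Between groups, the fold change of a gene does not depend on its length.

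The log2 fold changes of the subunits ran from -0.05 for Tcp1 to 0.22 for Cct6a. By the adjusted p used for all genes, 3 of 8 (37.5%) were past the threshold, against 33.2% of all genes tested. All 3 were higher, against 16.5% of all genes. The median log2 fold change of the 8 was 0.06, against 0.0004 over all tested genes. Groups did not overlap for 5 of 8 (62.5%, against 43.9% of all genes): 4 were higher (22.9% of all genes) and 1 was lower (21.0%). With the filter of at least 5 CPM in 3 libraries, 3 of 8 subunits passed, against 4165 of 9845 genes. Since the members were chosen with this contrast known, nothing is read from these shares. Without medium replicate 2, 5 of 8 were past the threshold, with Cct2 and Cct5 added, and without CpdA replicate 2, 4 were, with Cct5 added.

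Cct6a (ENSMUSG00000029447, zeta subunit, chromosome 5, 129787439 to 129845820, GRCm38) had 171, 185 and 180.4 FPKM in medium and 209, 213 and 207 FPKM with CpdA. Every CpdA library was above every medium library, and the mean level was 17.4% higher. The log2 fold change, fitted to the counts, was 0.22 ± 0.03 (SE). Cct3 (ENSMUSG00000001416, gamma subunit, chromosome 3, 88297116 to 88321767), the least abundant, had 86.5, 91.7 and 88.4 FPKM in medium and 105, 100.3 and 102 FPKM with CpdA. Its groups did not overlap either, the mean level was 15.2% higher and its log2 fold change was 0.19 ± 0.03. Cct8 (ENSMUSG00000025613, theta subunit, chromosome 16, 87483326 to 87495873) had 196, 202 and 196 FPKM in medium and 223, 220.3 and 219 FPKM with CpdA. Again all CpdA libraries were higher, by 11.4% in the mean, with a log2 fold change of 0.15 ± 0.03.

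Tcp1 (ENSMUSG00000068039, alpha subunit, chromosome 17, 12915701 to 12925067), the founding member of the family, was the only subunit with a negative log2 fold change. It had 168, 171 and 167 FPKM in medium and 163, 167 and 162 FPKM with CpdA. All CpdA libraries lay below all medium libraries, but the difference was small, at -2.70% of the mean and a log2 fold change of -0.05 ± 0.03. Leaving out each library in turn gave -0.06 to -0.04.

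Cct2 (ENSMUSG00000034024, beta subunit, chromosome 10, 117050998 to 117063814) had 341, 353 and 336 FPKM in medium and 367, 356 and 355 FPKM with CpdA. The groups did not overlap, by a margin of under 1% between the nearest libraries, and the log2 fold change was 0.06 ± 0.03. Cct5 (ENSMUSG00000022234, epsilon subunit, chromosome 15, 31590800 to 31601847) had 248, 265 and 259 FPKM in medium and 279, 263 and 269.9 FPKM with CpdA, a log2 fold change of 0.06 ± 0.03. CpdA replicate 2 fell among the medium libraries. Cct7 (ENSMUSG00000030007, eta subunit, chromosome 6, 85451505 to 85468477) had 215, 223 and 225 FPKM in medium and 232, 220.1 and 233 FPKM with CpdA, a log2 fold change of 0.04 ± 0.03. Cct4 (ENSMUSG00000007739, delta subunit, chromosome 11, 22990519 to 23003780) had 173, 182 and 175 FPKM in medium and 177, 176 and 184 FPKM with CpdA, a log2 fold change of 0.01 ± 0.03 that ran from -0.004 to 0.032 when each library was left out. For Cct4, Cct5 and Cct7 the groups overlapped.

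**Figure D2:**
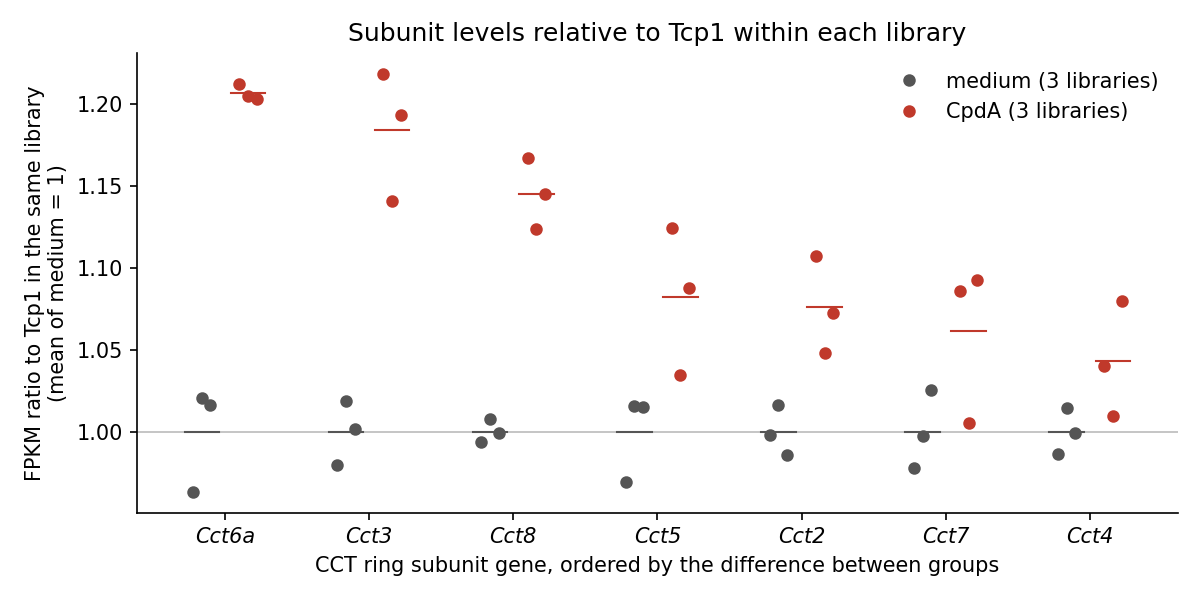
Ratio of each subunit's FPKM to that of Tcp1 in the same library, scaled so that the medium mean is 1 (vertical axis, not starting at 0), with 1 point per library and the group mean as a line. Cct6a, Cct3 and Cct8 gained most on Tcp1, while the points of Cct7 and Cct4 overlap between groups.

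Ratios taken within a library do not depend on how libraries are scaled. Cct6a was 1.02, 1.08 and 1.08 times Tcp1 per length in the medium libraries and 1.29, 1.28 and 1.28 times in the CpdA libraries. Its lowest CpdA ratio exceeded its highest medium ratio, and the means differed by 20.7%. The corresponding gains were 18.4% for Cct3 and 14.6% for Cct8. They were 8.22% for Cct5 and 7.60% for Cct2, also without overlap, whereas Cct7 (6.13%) and Cct4 (4.30%) overlapped. Each gain includes the lower level of Tcp1 with CpdA, -2.70% of its mean. Undivided by Tcp1, mean FPKM differed by 5.24% for Cct5 and 4.65% for Cct2, and by 3.22% for Cct7 and 1.44% for Cct4. Undivided, the groups of Cct5 overlapped as well. As a share of the summed FPKM of the 8 genes, Cct6a went from 10.9 ± 0.2% to 12.1 ± 0.3% and Tcp1 from 10.3 ± 0.1% to 9.45 ± 0.23% (SD, n = 3), where an even split would be 12.5%. The smallest count of any subunit in a library was 5544, for which counting error alone is 1.34% of the value. The coefficient of variation between libraries of a group ran from 1.08% (Cct8 with CpdA) to 3.84% (Cct6a in medium).

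Several subunit genes overlap or face a neighbour. The strand setting of the counting was not stated, and reads from shared exons could have gone to either gene. By the deposited coordinates Cct6a starts 187 bases from Psph, a gene of serine synthesis on the other strand, and the 2 genes do not overlap. In GENCODE, where Cct6a starts at 129786998, their exons share 452 bases, and which of the 2 gene models was counted was not stated. Psph had 35.5% as many counts as Cct6a and rose by a like amount, from 35.2 ± 1.7 to 41.5 ± 0.8 FPKM (SD, n = 3), for which edgeR gave 0.23 ± 0.04 on the log2 scale (SE) with an adjusted p of 9.0e-06. The part of shared reads in the difference of Cct6a was not tested. Cct8 shares 192 exon bases at its 3′ end with Usp16, a deubiquitinase gene with 11.3% as many counts, which rose by 0.15 ± 0.05 (adjusted p = 0.0119). Usp16 missed the threshold without CpdA replicate 3 (log2 fold change 0.14, adjusted p = 0.0540). For B130034C11Rik, a transcript that starts 126 bases from Cct8, the log2 fold change was 0.35 ± 0.28 (adjusted p = 0.356).

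Tcp1 faces Mrpl18, a mitochondrial ribosomal protein gene whose exons share 141 bases with it and whose log2 fold change was 0.015 ± 0.045 (adjusted p = 0.844). Acat3 overlaps the other end of Tcp1 by 571 exon bases but had only 0.147% as many counts. Pradc1 shares 214 exon bases with Cct7 and had 2.83% as many counts, with a log2 fold change of 0.00 ± 0.08 (adjusted p = 0.999). Fam173b starts 5 bases from Cct5, and its log2 fold change was 0.105 ± 0.082 (adjusted p = 0.356). Tsacc, which starts 117 bases from Cct3, had 46 counts over all libraries and was not tested. Of the tested neighbours, Psph and Usp16 passed the threshold and the others did not.

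**Figure D3:**
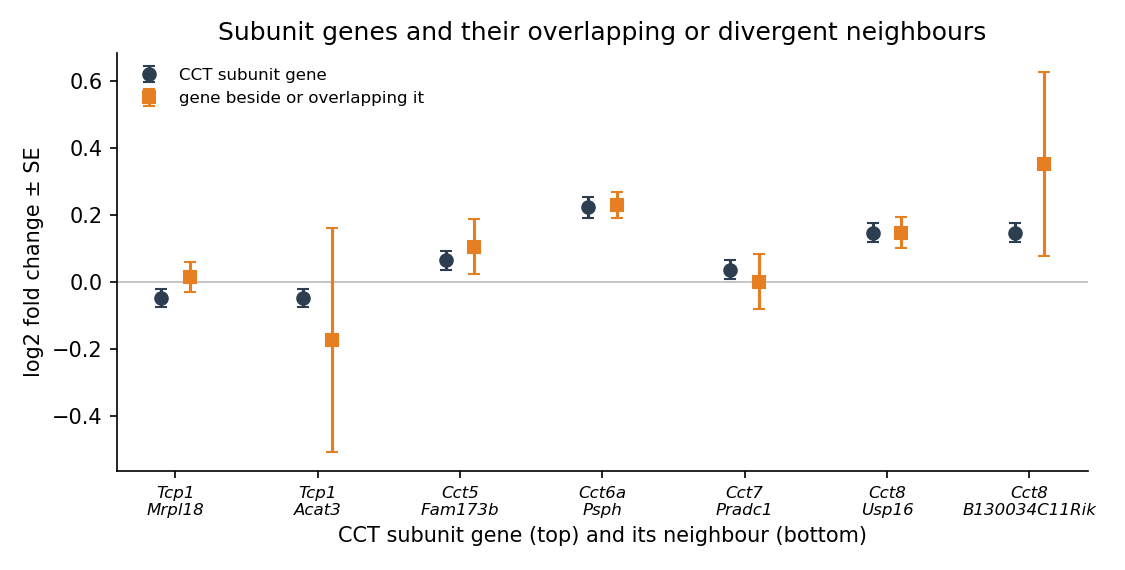
Log2 fold change of CpdA over medium with its SE (vertical axis) for subunit genes and for the tested genes that overlap them or start within 1000 bases on the other strand. Psph and Usp16 lie close to Cct6a and Cct8, and Mrpl18 and Pradc1 lie near 0, as do Tcp1 and Cct7. B130034C11Rik (0.35 ± 0.28) lies above Cct8 and Acat3 (-0.18 ± 0.33) below Tcp1, both with a wide SE. Fam173b (0.105 ± 0.082) lies above Cct5.

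The lists of related genes that follow were, like the subunits, chosen with earlier results of these data known. Their shares past the threshold are a description only. The co-chaperones of CCT gave few calls. Of 12 tested genes for prefoldin subunits, prefoldin-like and phosducin-like proteins, 2 rose and 0 fell, with a median log2 fold change of 0.10 against 0.0004 for all genes. The share past the threshold, 16.7%, was below the 33.2% of all genes, and the count was 4 with scaling by library size alone. Pfdn4, a prefoldin subunit, rose from 18.1 ± 0.6 to 22.4 ± 0.4 FPKM (SD, n = 3), or by 0.30 ± 0.07 on the log2 scale (adjusted p = 0.00077). Pfdn2, another subunit, rose by 0.21 (adjusted p = 0.00029). Pfdn5, among the most abundant of the list, had 89.6 FPKM in medium, 89.2 FPKM with CpdA and differed by -0.01 on the log2 scale (adjusted p = 0.865). Uri1, a prefoldin-like protein, had 0.00 (adjusted p = 0.974). Pdcl2 was not analysed here.

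The chaperonin of mitochondria differed in both of its genes. Hspd1, which codes for its ring subunit, had 220.4, 245 and 233 FPKM in medium and 291, 271 and 282 FPKM with CpdA. All CpdA libraries were higher, with a log2 fold change of 0.26 ± 0.03 (adjusted p = 4.8e-08). Hspe1, the lid, rose by 0.14 ± 0.03 (adjusted p = 0.00043). The other tested genes of that list, Cct6b and the chaperonin-like Mkks, Bbs10 and Bbs12, did not pass, so that 2 of 6 tested members rose and 0 fell (33.3%, against 33.2% of all genes), with a median of 0.16. Cct6b, a paralogue of Cct6a known from testis, had 51 counts in medium and 32 with CpdA (log2 fold change -0.79 ± 0.39, adjusted p = 0.124). Cct8l1, a paralogue of Cct8, had 1 and 2 counts, under the count filter.

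The Hsp70 and Hsp90 systems, which act on many cytosolic proteins before or beside CCT, had more calls. Of 25 tested heat shock chaperone genes 13 rose and 1 fell (56.0% past the threshold, against 33.2% of all genes), with a median of 0.13. With the filter of at least 5 CPM in 3 libraries, 13 of 23 passed, against 4165 of 9845 genes. Hsph1, a nucleotide exchange factor of Hsp70, had 22.7, 24.3 and 22.5 FPKM in medium and 31.7, 30.6 and 30.7 FPKM with CpdA. The groups lay far apart, with a log2 fold change of 0.41 ± 0.04 (adjusted p = 7.4e-12). Dnaja1, a J-domain partner of Hsp70, rose by 0.34 (adjusted p = 2.4e-11), and Hspa8, the constitutive cytosolic Hsp70, by 0.23, from 683 ± 14 to 807 ± 22 FPKM (SD, n = 3, adjusted p = 9.3e-10). Hsp90aa1 rose by 0.24 (adjusted p = 6.8e-10), whereas Hsp90ab1, the more abundant cytosolic Hsp90 with 2006 FPKM in medium, had -0.03 (adjusted p = 0.301). Ahsa1 and Ptges3, co-chaperones of Hsp90, rose by 0.36 and 0.29 (adjusted p = 1.4e-07 and 2.3e-09). Hspa4l was the member that fell, by 0.37 on the log2 scale (adjusted p = 1.5e-08). The 11 tested genes that did not pass included Hsf1 (0.13, adjusted p = 0.0823), Bag3 (0.13, adjusted p = 0.157) and Dnajb1 (-0.02, adjusted p = 0.718). Hspa1a (0.09, adjusted p = 0.881) and Hspa1b (-0.22, adjusted p = 0.334) did not pass either, at 0.256 and 1.34 FPKM in medium. Hspb1, with 5 counts in each group, was under the count filter.

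**Figure D4:**
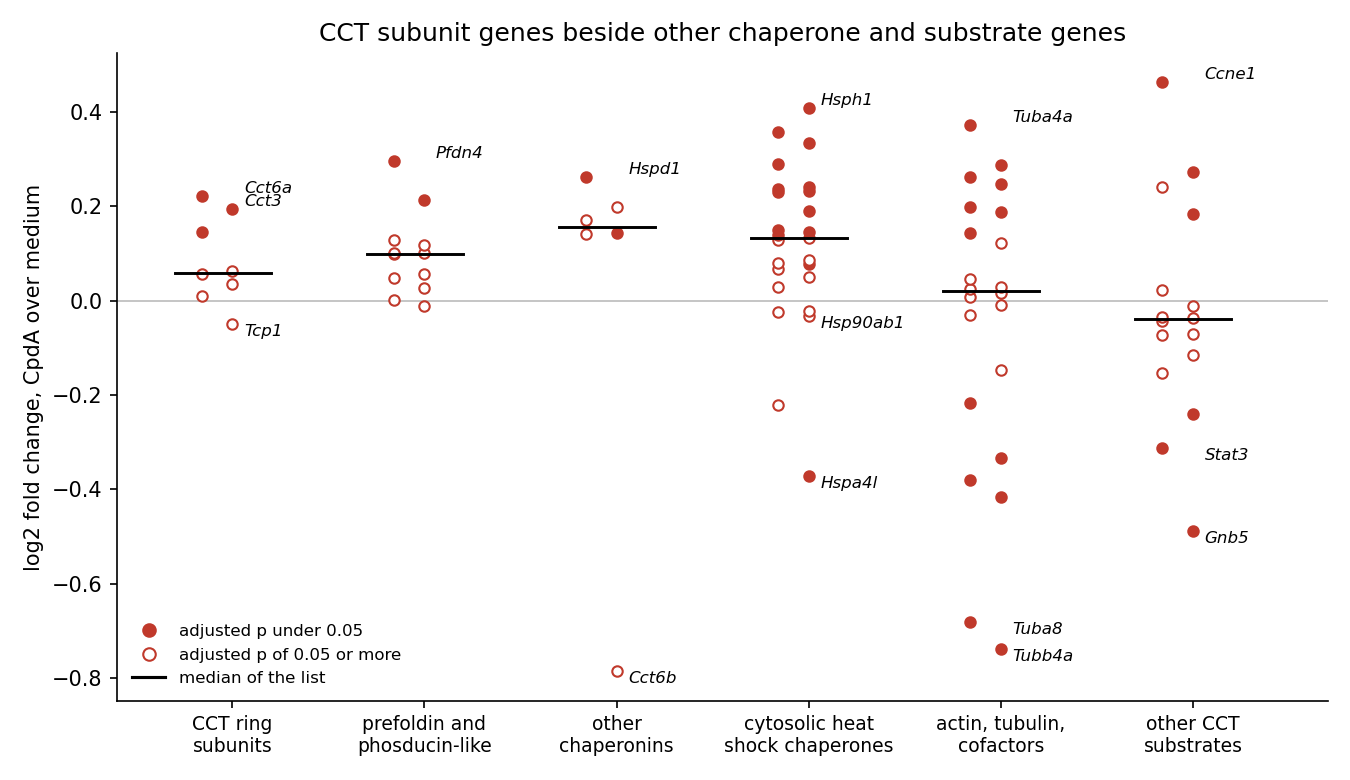
Log2 fold change of CpdA over medium (vertical axis) for the 8 subunit genes and the tested genes of 5 related lists, 1 point per gene, filled where the adjusted p is under 0.05, with the list's median as a line. The subunits spread from -0.05 to 0.22, the heat shock chaperones lie mostly above 0, and the tubulin list reaches both ways.

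Calls in the list of the main CCT substrates and the tubulin cofactors went both ways. Among 22 genes of actin, tubulin and the cofactors that assemble tubulin after CCT releases it, 7 rose and 6 fell (59.1% past the threshold, against 33.2% of all genes), with a median of 0.02. With the filter of at least 5 CPM in 3 libraries, 12 of 20 passed, against 4165 of 9845 genes. The cytoplasmic actin genes did not pass: Actb had 2592 ± 66 and 2696 ± 62 FPKM (SD, n = 3; log2 fold change 0.05, adjusted p = 0.125) and Actg1 had 0.01 (adjusted p = 0.853). Among tubulins, Tuba4a rose by 0.37 and Tuba1c by 0.26, while Tubb6 changed by -0.38 and Tubb4a by -0.74, from 4.97 to 3.00 FPKM (adjusted p = 7.0e-10, 1.1e-06, 9.0e-10 and 5.0e-07). Tuba1b, Tubb4b and Tuba1a, with 501, 118 and 82.8 FPKM in medium, also rose, by 0.14, 0.29 and 0.20. Tubb2a, with 9.30 FPKM in medium, rose by 0.25, while Tubb2b (8.31 FPKM) changed by -0.42 and Tuba8 (1.48 FPKM) by -0.68. Tubb5, the most abundant tubulin at 606 FPKM in medium, did not pass (0.02, adjusted p = 0.702). Of the tubulins past the threshold, those that fell had at most 51.6 FPKM in medium (Tubb6). Those that rose had 9.30 to 501 FPKM. Tubulin genes are close copies of each other, and their reads may have been divided in ways that were not tested.

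Of 16 other reported substrates 3 rose and 3 fell (37.5%, against 33.2% of all genes), with a median of -0.04. Ccne1, cyclin E1, had 19.3, 21.0 and 20.1 FPKM in medium and 29.4, 26.1 and 28.4 FPKM with CpdA. All CpdA libraries were higher, by 0.46 ± 0.05 on the log2 scale (adjusted p = 2.9e-09). Stat3, a cytokine-activated transcription factor, changed by -0.31 (adjusted p = 5.8e-12), Vhl, the substrate receptor of a ubiquitin ligase, by -0.24 (adjusted p = 0.00027) and Gnb5, a G protein beta subunit, by -0.49 (adjusted p = 0.00018). Gnb1, a far more abundant beta subunit, had 114 FPKM in medium and 112 FPKM with CpdA and did not pass (log2 fold change -0.04, adjusted p = 0.357).

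The genes most like the subunits across the 6 libraries were named by their correlation with the mean of the 8 centred log2 profiles, as a description. Over the 6746 other genes at or above the median level, the highest were Mcm10, a replication factor (r = 0.999), Nol9, a nucleolar kinase (0.998), Ddx39, an RNA helicase (0.998), Dlst, an enzyme of the citric acid cycle (0.998), and Lsm7, a splicing protein (0.997). Such values were common, since 429 genes reached 0.95 over these 6 points, which share the contrast between groups and their library depth. With group means removed, the highest were Pole, the DNA polymerase epsilon gene (0.998), Lsm7 (0.997), Clpb, a mitochondrial disaggregase (0.996), Ddx39 (0.996) and Nol9 (0.995). By this measure 135 of the 6746 genes reached 0.95. Lsm7, Ddx39 and Nol9 stood in both sets, which rest on the same 6 libraries.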

How the data were processed

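The deposited table gives raw read counts per gene and library, per the file headers, and FPKM computed by the authors. Every deposited FPKM followed from count, gene length and library total to a relative error under 1.9e-07. CASAVA 1.8, GRCm38 and mm10 are named, per the submitters' processing notes. Aligner, counter, annotation and strand setting: not given in the sources used here. Gene overlaps were read from GENCODE M21 (GRCm38), which held 20917 of the 21139 identifiers; promoters came from RefSeq. There were 0 unmapped per-sample columns.

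Counts were tested with edgeR 4.0.16 (R 4.3.3): quasi-likelihood test, TMM, robust dispersions, no covariates, 3 libraries against 3. filterByExpr (minimum count 10, minimum total 15) left 13507 genes. P-values were adjusted over all of them by Benjamini-Hochberg with a threshold of 0.05. The SE is the log2 fold change divided by the square root of F. The fit was tested on simulated counts. Precision follows from 20247761 to 25952169 counts per library, counting error only.

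Members and lists were chosen with earlier results of these data known. Named from each list were up to 4 changed genes with the smallest p, the 2 highest by mean CPM, which is not scaled to length, and any under the filter; further, neighbours within 1000 bases or with overlapping exons, and the 5 genes most like the subunits. Ahsa1, Ptges3, Hspa4l, Hspa1a, Hspa1b, Dnajb1, Bag3, Hsf1, Cct6b, Mkks, Bbs10 and Bbs12 lie outside this rule, having been picked once their values were known. The same holds for Tuba1a, Tuba1b, Tuba8, Tubb2a, Tubb2b, Tubb4b and Tubb5. Alternatives were other scalings, DESeq2 1.42.0, other filters, a replicate block, other gene lengths and leaving out each library.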

Additional observations from a re-analysis of the deposited data

How the results depend on the processing

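For the counts of changed genes, the median and sum of the subunits and their levels per length, 91 alternative values stayed within the limits set for them (1.5 times for a count, 1 SD between libraries for a value). The 3 others were the prefoldin and phosducin-like count, which was 4 instead of 2 with scaling by library size alone, and the ratio of the highest to the lowest subunit level per length, which was 3.67 with the deposited length, 5.38 with the union of GENCODE exons and 2.20 with the coding length, an alternative chosen after seeing the data. Among the single genes named by rule from the lists and neighbours, 1 alternative value lost its call (Usp16 without CpdA replicate 3). The sign of values near 0 changed under some alternatives for Cct4, Actg1, Pfdn5, Uri1, Acat3 and Pradc1, none of them past the threshold. Leaving out 1 library gave 3660 to 4336 changed genes, a median log2 fold change of the subunits of 0.042 to 0.082 and a log2 ratio of their sums of 0.065 to 0.096. The same replicate numbers in both groups did not pair the libraries: deviations of same-numbered libraries correlated at -0.045, -0.057 and -0.012, and 0 of 3 correlated best with their own number. With the replicate block 3936 genes were changed, against 4483 without it. Whether Cct2 and Cct5 were past the threshold depended on which library was left out.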

Other observations

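Within a group, most pairs of subunit genes had a positive correlation. After group means were removed, 26 of the 28 pairs of subunits correlated above 0 over the 6 libraries, with a median r of 0.55. For a subunit with any other gene at or above the median level, 53.1% of r were above 0, with a median of 0.06. Most of these genes lie at lower levels than the subunits, and the part of level in the difference was not tested. The 28 pairs share the same 8 genes and are not independent. The highest was between Cct3 and Cct5 (0.955) and the lowest between Tcp1 and Cct7 (-0.51). Tcp1 had the 2 negative values, with Cct5 (-0.05) and Cct7. With so few libraries, which share their depth, these values are a description only.

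RefSeq lists 16 pseudogene copies of the subunit genes. Of these, 1 had a row in the table, Gm15495, a copy of Cct4, with 1 count over all libraries. How the authors' counting treated reads that match a subunit gene and its copies was not tested.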
